A study of Homo sapiens with 6 samples.

Results

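A set of 10 genes of uracil handling and base excision repair was followed at the RNA level in HCT116 cells, a human colorectal carcinoma line, after transfection with a short interfering RNA against STRIP2 or with a control one. The genes were taken by symbol from the deposited table, which lists 61806 genes, and all 10 were found in 1 row each: UNG, DUT, SMUG1, TDG, MBD4, APEX1, NEIL3, OGG1, MUTYH and NTHL1. There were 3 libraries of control cells (si-NC, labelled wildtype) and 3 of knockdown cells (si-STRIP2, labelled as a STRIP2 knockdown), all of the same line and grown in the same medium. The sources used here do not give the transfection time or the siRNA sequences, nor do they say whether the 3 libraries of each group are separate cultures, so p-values measure only the spread between these libraries, which may be technical. The 10 genes were chosen with the values of the same comparison known. Their differences are therefore given as a description, as log2 fold changes with a standard error (SE) from edgeR but with no p-value, and the threshold spoken of below is 0.05 on the adjusted p. FPKM is a read count scaled by exonic length and by the library's total count.

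Base excision repair removes single damaged or misplaced bases from DNA. A glycosylase cuts the base from its sugar, an endonuclease opens the strand at the empty site, and polymerases and ligases close the gap. Uracil reaches DNA by deamination of cytosine or by incorporation of dUTP during replication. DUT hydrolyses dUTP and so keeps it out of the replication fork, and UNG removes uracil that has been incorporated. The nuclear forms of UNG and DUT, and NEIL3, are known to be expressed with the cell cycle.

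UNG and DUT each make a nuclear and a mitochondrial protein from separate first exons, and the deposited values count each gene as a whole. In GENCODE 29 (GRCh38), the UNG transcript with a coding sequence of 939 bases starts at 109097574 on chromosome 12, and the one with 912 bases starts at 109098118. The first is the nuclear form (UNG2) and the second the mitochondrial form (UNG1). The DUT transcript with a coding sequence of 492 bases, the nuclear form, starts at 48332103 on chromosome 15, downstream of the start at 48331423 of the form with 756 bases. Promoter windows from RefSeq (GRCh38.p14, 250 bases before to 50 after a start) were found for 9 of the 10 genes, 15 windows in all, and SMUG1 was not matched. Both UNG windows are shown because UNG differed most between the groups, the DUT window because it is the one nearest to the start of the nuclear form, NEIL3 as another gene expressed with the cell cycle, and TDG as the one member that was lower. Capitals mark 3 kinds of word on either strand: E2F-type words (TTTCCCGC, TTTGGCGC, TTTCGCGC or TTTGCCGC), the NF-Y word CCAAT, and the CHR word TTTGAA.
UNG start 1 (chr12:109097347-109097646, plus strand): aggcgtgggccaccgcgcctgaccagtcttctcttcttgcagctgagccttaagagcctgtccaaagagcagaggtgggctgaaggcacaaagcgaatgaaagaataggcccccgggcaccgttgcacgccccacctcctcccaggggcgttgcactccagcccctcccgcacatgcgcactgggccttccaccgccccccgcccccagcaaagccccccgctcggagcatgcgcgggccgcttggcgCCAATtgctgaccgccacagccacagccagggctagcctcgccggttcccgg
UNG start 2 (chr12:109097922-109098221, plus strand): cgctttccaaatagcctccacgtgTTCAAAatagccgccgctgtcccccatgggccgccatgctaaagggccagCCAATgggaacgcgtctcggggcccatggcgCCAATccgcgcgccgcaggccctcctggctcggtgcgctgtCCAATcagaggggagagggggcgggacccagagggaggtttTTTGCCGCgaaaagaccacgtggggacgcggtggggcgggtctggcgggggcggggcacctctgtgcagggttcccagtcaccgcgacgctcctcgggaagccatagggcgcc
DUT start 4 (chr15:48331947-48332246, plus strand): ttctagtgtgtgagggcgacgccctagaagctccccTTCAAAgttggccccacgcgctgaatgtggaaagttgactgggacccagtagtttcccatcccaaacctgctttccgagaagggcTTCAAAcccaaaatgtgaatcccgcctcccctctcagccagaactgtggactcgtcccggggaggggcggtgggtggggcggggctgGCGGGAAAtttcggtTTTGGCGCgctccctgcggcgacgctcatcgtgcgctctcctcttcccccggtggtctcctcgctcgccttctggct
NEIL3 start 1 (chr4:177309624-177309923, plus strand): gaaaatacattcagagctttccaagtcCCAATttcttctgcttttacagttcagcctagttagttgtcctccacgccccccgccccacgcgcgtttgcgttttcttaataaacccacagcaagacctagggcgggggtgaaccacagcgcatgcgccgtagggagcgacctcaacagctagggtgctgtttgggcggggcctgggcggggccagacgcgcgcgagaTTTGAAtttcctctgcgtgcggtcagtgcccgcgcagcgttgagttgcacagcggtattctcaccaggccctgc
TDG start 1 (chr12:103965622-103965921, plus strand): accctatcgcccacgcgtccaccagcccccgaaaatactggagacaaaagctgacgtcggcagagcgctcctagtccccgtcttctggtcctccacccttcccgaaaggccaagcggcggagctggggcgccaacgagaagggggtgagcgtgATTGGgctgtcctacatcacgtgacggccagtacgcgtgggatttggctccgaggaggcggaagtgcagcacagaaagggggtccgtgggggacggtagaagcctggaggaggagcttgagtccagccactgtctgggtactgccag

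An E2F-type word was present in 2 of the 15 windows, UNG start 2 and DUT start 4, against 3.31% of 35116 RefSeq windows of the same length. The word in UNG start 2 (TTTGCCGC) lay 63 to 56 bases before the start. That spelling was added after the windows had been read, to complete the set of E2F-type words, and without it UNG had no E2F-type match. UNG start 2, at 109098172, is the window nearest to the start of the mitochondrial form. UNG start 1, at 109097597, is nearest to that of the nuclear form and held no E2F-type word. DUT start 4 held a pair, TTTCCCGC on the opposite strand at 42 to 35 bases and TTTGGCGC at 27 to 20 bases before the start. CCAAT was found in 9 of the 15 windows, against 34.6% of all windows, and 3 of its matches were in UNG start 2. The CHR word was found in 4 windows, against 15.2%, and the NEIL3 match lay 24 to 19 bases before the start. GGGCGG, a GC box word not capitalised above, was found in 11 windows, against 45.0%. These matches are descriptions of letters and not binding sites. The E2F-type matches share no bases with one another, and windows of one gene can overlap, as those of DUT starts 2 and 3 do.

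**Figure D1:**
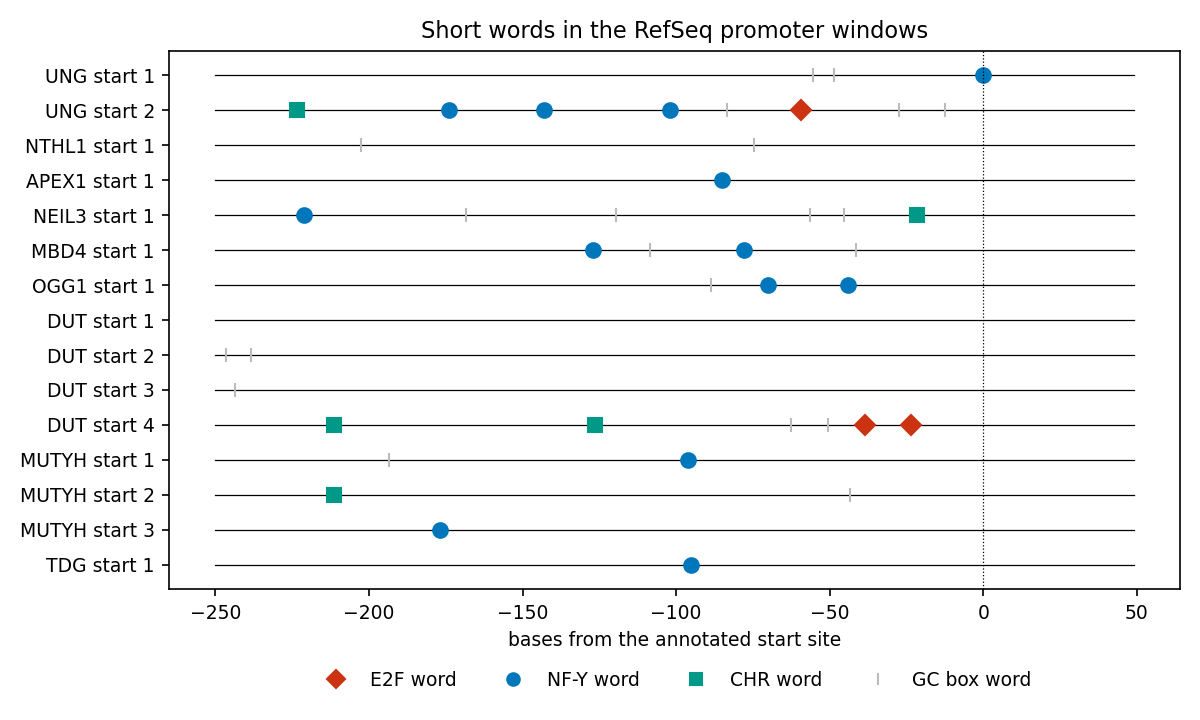
Position of each word in the 15 RefSeq promoter windows, one line per annotated start, in bases from that start (horizontal axis). Genes are ordered by their log2 fold change, UNG first and TDG last. E2F-type words (diamonds) stand only on the lines of UNG start 2 and DUT start 4.

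Total counts were 17184963 to 21721218 per library. STRIP2 itself had 3.19, 3.77 and 3.81 FPKM in si-NC and 2.71, 2.53 and 2.58 FPKM in si-STRIP2, so the knockdown was partial and the groups did not overlap (a log2 fold change of -0.46, SE 0.083, with edgeR adjusted p = 1.62e-05). Of 9 epithelial and colorectal markers, 7 had at least 1 FPKM in every library, while CDX1 was listed at 0 in each and VIL1 at 0.03 or less. The summed level of these markers was 705 to 735 FPKM in si-NC and 680 to 704 FPKM in si-STRIP2. Of the 7, 4 fell and 2 rose, where 27.8% of all tested genes were called higher and 27.0% lower. CDH1 was down by 0.60 on the log2 scale, CDX2 up by 0.38 and KRT19 up by 0.22 (edgeR adjusted p = 1.57e-14, 0.00285 and 1.85e-05). Over 15 other analyses 2 to 4 markers were called lower. The groups of EPCAM (-0.11) and ELF3 (-0.12) overlapped, and their calls were lost in 6 and 9 of the 15. A list of 12 markers of other cell types summed to 2.64 to 3.05 FPKM and 2.19 to 2.95 FPKM, most of it COL1A1 (1.89 to 2.55 FPKM). Fewer cells with a transcript and less transcript per cell cannot be told apart in these bulk samples.

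UNG, the main glycosylase for uracil in DNA, was the member with the largest difference. Its level was 7.40, 8.35 and 7.75 FPKM in the control libraries and 21.54, 22.48 and 21.72 FPKM in the si-STRIP2 libraries. All 3 si-STRIP2 libraries lay far above the control libraries, and the spread within either group was small beside the gap between them. The counts behind these levels were 702 to 847 in si-NC and 1972 to 2132 in si-STRIP2. The means were 7.83 ± 0.481 and 21.91 ± 0.499 FPKM (SD, n = 3), which is 2.80-fold, or 1.48 in log2 units (SE 0.048). Of the 15687 genes tested, 60 had a larger log2 fold change. UNG lies on chromosome 12, 109097597 to 109126725, plus strand, in the deposited table.

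SMUG1, TDG and MBD4 encode the other glycosylases that act on uracil or on thymine mispaired with guanine, and their differences were smaller and not all in one direction. SMUG1, a glycosylase with a preference for uracil and oxidised pyrimidines, had 2.24, 2.41 and 2.12 FPKM in si-NC and 2.90, 2.96 and 2.56 FPKM in si-STRIP2. Its si-STRIP2 libraries were all higher, with a log2 fold change of 0.31 (SE 0.087). MBD4, which binds methylated CpG and removes the thymine left by its deamination, had 8.43, 7.44 and 9.22 FPKM in si-NC and 10.53, 9.83 and 10.89 FPKM in si-STRIP2. The gap between the highest control and the lowest si-STRIP2 library of MBD4 was smaller than the range within the control group, and the log2 fold change was 0.31 (SE 0.070).

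TDG, which removes mispaired thymine and also the oxidised forms of methylcytosine, was the one member with lower levels in si-STRIP2 cells. It had 11.09, 11.61 and 11.20 FPKM in si-NC and 9.02, 8.79 and 9.94 FPKM in si-STRIP2. Every si-STRIP2 library lay below every control library, and 81.9% of the control level remained (log2 fold change -0.29, SE 0.053). UNG, SMUG1 and TDG are all on chromosome 12 but far apart, TDG at 103965822 to 103988874 on the plus strand and SMUG1 at 54121277 to 54189008 on the minus strand.

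The makeup of these 4 transcripts differed between the groups. UNG made up 25.4%, 28.0% and 25.6% of their summed FPKM in the control libraries and 49.0%, 51.0% and 48.1% in the si-STRIP2 libraries. TDG went the other way, from 38.0% ± 0.986 in si-NC to 20.8% ± 1.08 in si-STRIP2 (SD, n = 3), so TDG had the largest share in control cells and UNG in knockdown cells. The summed level was 29.8 ± 0.567 FPKM in si-NC and 44.4 ± 0.627 FPKM in si-STRIP2 (SD, n = 3). These shares depend on the exonic sizes used for FPKM, which are described below with the order of levels: by coding transcript length UNG stood above TDG in the control libraries too.

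**Figure D2:**
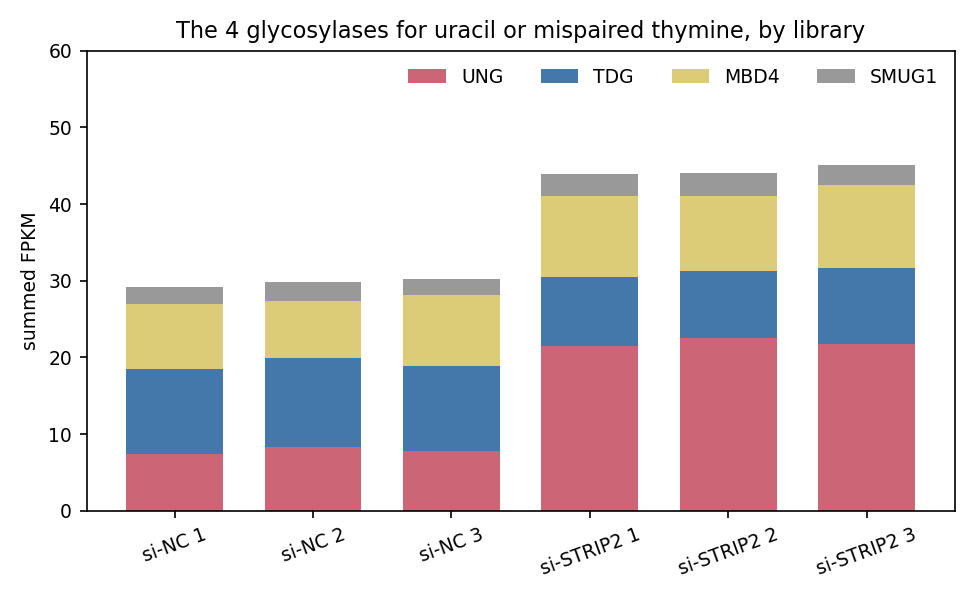
Summed FPKM of UNG, TDG, MBD4 and SMUG1 (vertical axis) in each of the 6 libraries, stacked by gene. The UNG segment is 7.40 to 8.35 FPKM in the si-NC bars and 21.54 to 22.48 FPKM in the si-STRIP2 bars, while the TDG segment is smaller in each si-STRIP2 bar.

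DUT, whose product removes dUTP before it can be built into DNA, differed far less than UNG. It had 20.09, 20.60 and 18.04 FPKM in si-NC and 20.80, 22.40 and 21.46 FPKM in si-STRIP2. The groups did not overlap, but the gap between them was 20.60 against 20.80 FPKM, and the log2 fold change was only 0.13 (SE 0.049). DUT missed the threshold in 6 of 15 other analyses, among them those that left out si-NC replicate 3, the lowest library (0.078), or si-STRIP2 replicate 2 (0.11) or 3 (0.13). The level of UNG relative to DUT in the same library was 0.368, 0.405 and 0.430 in si-NC and 1.04, 1.00 and 1.01 in si-STRIP2. On the deposited lengths UNG thus stood below DUT in each control library and close to it in each si-STRIP2 library. By coding transcript length, explained below, UNG stood above DUT in si-STRIP2, at 54.8 to 57.2 against 35.6 to 38.3 CPM per kilobase.

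APEX1, the main endonuclease at the sites that glycosylases leave, was the most abundant of the 10 transcripts. It had 87.78, 90.73 and 81.36 FPKM in si-NC and 122.79, 131.14 and 124.44 FPKM in si-STRIP2, with no overlap between the groups. The means were 86.6 ± 4.79 and 126 ± 4.42 FPKM (SD, n = 3), a difference of 0.54 in log2 units (SE 0.043). APEX1 stood 11.1 ± 0.706 times above UNG in si-NC and 5.75 ± 0.0700 times above it in si-STRIP2 (SD, n = 3), on the deposited lengths. By coding transcript length the means of APEX1 and UNG were 110.1 and 19.9 CPM per kilobase in si-NC and 160.3 and 55.8 in si-STRIP2.

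The remaining members act mainly on oxidised bases. NEIL3, a glycosylase with a part in repair at replication forks, had 9.46, 8.94 and 9.71 FPKM in si-NC and 13.36, 13.58 and 12.99 FPKM in si-STRIP2. Its si-STRIP2 libraries were all higher and close together (log2 fold change 0.50, SE 0.061). NTHL1, which removes oxidised pyrimidines, had 2.29, 1.93 and 2.35 FPKM in si-NC and 4.08, 3.51 and 3.97 FPKM in si-STRIP2. With a log2 fold change of 0.81 (SE 0.12), NTHL1 had the second largest difference of the 10, from counts of 81 to 186 per library.

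OGG1 and MUTYH act on 8-oxoguanine, OGG1 where it is paired with cytosine and MUTYH by removing an adenine placed opposite it. OGG1 had 0.98, 0.89 and 1.03 FPKM in si-NC and 1.24, 1.11 and 1.20 FPKM in si-STRIP2. The gap between its groups, from 1.03 to 1.11 FPKM, was smaller than the range within either. The log2 fold change of 0.28 (SE 0.105) missed the threshold in 6 of 15 other analyses, among them those that left out si-NC replicate 2 (0.22), si-STRIP2 replicate 1 (0.25) or si-STRIP2 replicate 3 (0.27). MUTYH had 1.24, 1.12 and 1.26 FPKM in si-NC and 1.29, 1.39 and 1.13 FPKM in si-STRIP2, and its groups overlapped. MUTYH differed by 0.068 in log2 units (SE 0.12), from counts of 113 to 156, with values from 0.0014 to 0.14 over 15 other analyses.

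**Figure D3:**
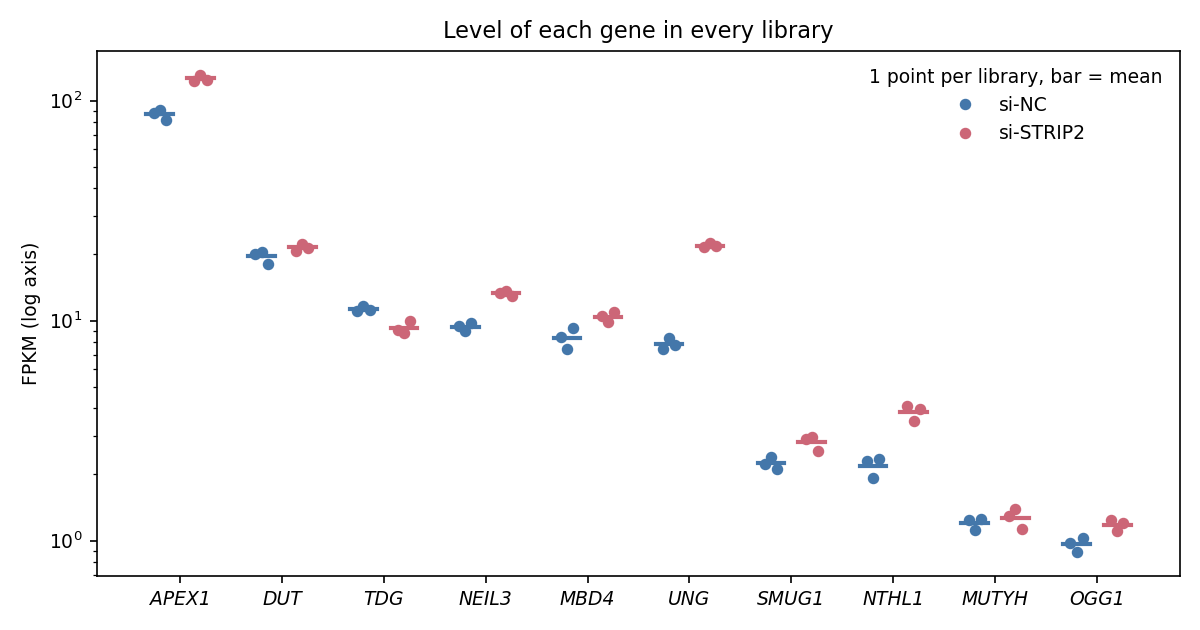
FPKM of the 10 genes (vertical axis, logarithmic) with 1 point for each of 3 si-NC and 3 si-STRIP2 libraries and a bar at the group mean, ordered by the si-NC mean. UNG shows the widest separation between groups, TDG is the one gene with the si-STRIP2 points below, and the MUTYH points overlap.

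Of the 10 members, 8 were higher and 1 lower at an edgeR adjusted p under 0.05, and MUTYH was neither. Over all 15687 tested genes, 54.8% were called in either direction, 27.8% higher and 27.0% lower. The FPKM groups of 9 members did not overlap, where 58.6% of all tested genes had such groups, 30.0% with si-STRIP2 higher and 28.7% with it lower. The median log2 fold change was 0.31 over the members and 0.014 over all tested genes. Since these 10 were chosen with the comparison known, nothing is read from these counts. In size, UNG stood alone at 1.48, NTHL1, APEX1 and NEIL3 lay between 0.50 and 0.81, and the other 6 between -0.29 and 0.31.

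**Figure D4:**
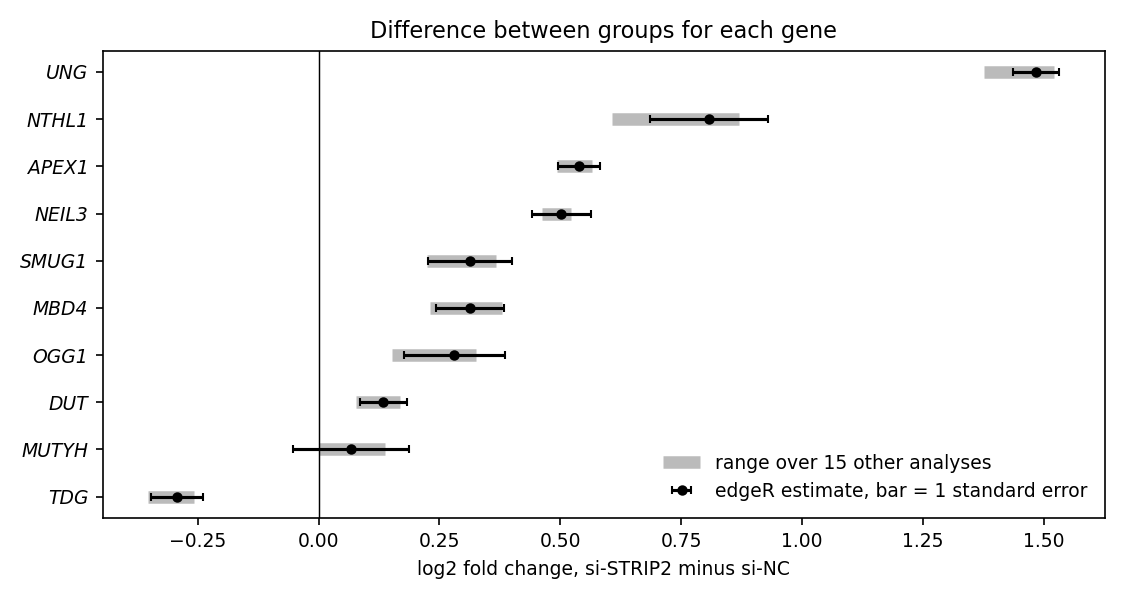
Log2 fold change of each gene, si-STRIP2 minus si-NC (horizontal axis), with 1 standard error from edgeR and, in grey, the range over 15 other analyses. UNG stands apart at 1.38 to 1.52 in all of them, MUTYH reaches down to 0.0014, and TDG stays below 0.

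The control libraries differed among themselves. MBD4, NEIL3, OGG1, MUTYH and NTHL1, 5 of the 10, were lower in si-NC replicate 2 than in si-NC replicate 3, and UNG, DUT, SMUG1, TDG and APEX1 were higher. The share of all tested genes lower in si-NC replicate 2 than in si-NC replicate 3 was not computed, so nothing is read from this split. These 2 libraries were also the pair within a group that differed most over all genes, with a chi-square of 16.7 per degree of freedom, against 2.14 to 8.13 for the other pairs. Without si-NC replicate 2, the log2 fold change was 1.52 for UNG, 0.72 for NTHL1 and 0.22 for OGG1.

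The order of levels was taken from the control libraries on the FPKM scale, which divides by length. From the top it was APEX1, DUT, TDG, NEIL3, MBD4, UNG, SMUG1, NTHL1, MUTYH and OGG1. NEIL3 overlapped MBD4, MBD4 overlapped UNG, and SMUG1 overlapped NTHL1 in their libraries, and the other neighbours did not overlap. In the si-STRIP2 libraries UNG was the second highest, overlapping DUT next to it on this scale. APEX1 ranked 360 of 15687 tested genes by its si-NC mean, DUT 2144, UNG 5036 and OGG1 11916.

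The length behind FPKM differs from the length of the mature transcript for some members. The deposited exonic size of UNG is 5271 bases, 2.05 times its exonic size in GENCODE 29 (2567 bases), and its deposited end lies 15733 bases beyond the one there. For OGG1 the deposited size of 8733 bases is 3.93 times the length of its transcript with the longest coding sequence. With CPM per kilobase of that coding transcript, an alternative chosen after seeing the data, 5 of the 10 places in the order changed. UNG then stood in place 3 in si-NC at 19.9 ± 1.23 (SD, n = 3), above TDG in every library, and OGG1 overlapped MUTYH. In si-STRIP2 UNG stood in place 2 on this scale too, at 55.8 ± 1.28 (SD, n = 3), without overlap with DUT. Differences between groups for one gene are not altered by its length.

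Several members share genome positions with other genes. Although the library kit keeps strand, the sources used here do not say whether strand was used in counting. The extended UNG row overlaps ACACB on the same strand, which held 15.0% as many counts as UNG and differed by -0.048 in log2 units (SE 0.098, edgeR adjusted p = 0.703). MBD4 lies within IFT122 on the opposite strand, which held 77.5% as many counts and rose by 0.56 on the log2 scale (edgeR adjusted p = 1.17e-07). OGG1 overlaps TADA3 and CAMK1, at 727% and 37.9% of its counts, with log2 fold changes of -0.021 and 0.14 (edgeR adjusted p = 0.734 and 0.491). MUTYH overlaps TOE1, at 246% of its counts, which rose by 0.28 (edgeR adjusted p = 0.00361), and APEX1 shares 92 bases with PIP4P1. The values of MBD4, OGG1 and MUTYH are therefore uncertain in so far as reads of these neighbours could have been counted for them, which was not tested. The UNG row shares 10139 bases with ACACB on the same strand, where counting by strand would not separate the reads. This was not tested either. NTHL1 overlaps no other gene, and those that overlap DUT, SMUG1, TDG and NEIL3 held at most 1.68% as many counts. Counts assigned to 8 pseudogenes named after DUT came to 0.712% of the DUT counts, and those of 1 named after TDG to 0.526% of the TDG counts.

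The genes whose profile over the 6 libraries was most like that of UNG were MCM5, MCM4, HSPA8, ZNF512 and KCNN4. Likeness was the Euclidean distance between log2 CPM values, each gene centred on its si-NC mean, among 6750 candidates with a mean of at least 5 FPKM, and the distance was 0.157 for MCM5, 0.209 for MCM4 and 0.305 for HSPA8. MCM5 and MCM4 are subunits of the replicative helicase, HSPA8 a constitutive HSP70 chaperone, ZNF512 a zinc finger protein and KCNN4 a calcium-activated potassium channel. MCM5 had 7.24, 7.26 and 7.53 FPKM in si-NC and 21.23, 21.56 and 20.28 FPKM in si-STRIP2. Because each gene was centred on its si-NC mean, a small distance to UNG mostly means a rise of like size. ZNF512 and KCNN4 passed the limit of 5 FPKM only through the si-STRIP2 libraries. Their means were 3.62 and 3.63 FPKM in si-NC and 8.55 and 8.61 FPKM in si-STRIP2. For DUT the nearest were TSEN34, COX15, TRIAP1, SLC25A17 and CFAP20, at distances of 0.0456 to 0.0537, with log2 fold changes of 0.11 to 0.14. On log2(FPKM + 1) values, 3 of the 5 genes nearest to UNG and 4 of the 5 nearest to DUT remained. ZNF512, KCNN4 and SLC25A17 were the ones lost.

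Of the 32 base excision genes that were not members, 24 rose and 1 fell in si-STRIP2 cells at an edgeR adjusted p under 0.05. Their median log2 fold change was 0.28, against 0.014 over all tested genes. Over all tested genes 27.8% were called higher and 27.0% lower. This list of 32 genes was chosen with earlier results of these data known. The largest rise was that of LIG1, the ligase of replication and of long-patch repair, from 3.66, 4.00 and 4.36 FPKM to 7.60, 7.54 and 7.21 FPKM (0.90 in log2 units, SE 0.052, with edgeR adjusted p = 3.00e-16). PARP1, which senses strand breaks, rose from 15.2 ± 0.593 to 24.4 ± 1.28 FPKM (SD, n = 3), or 0.68 in log2 units (edgeR adjusted p = 6.06e-15). FEN1, the flap endonuclease, rose by 0.66 on the log2 scale (SE 0.045, edgeR adjusted p = 2.03e-14). In each of these 3 genes all si-STRIP2 libraries lay above all control libraries. The deposited annotation gives the pathway term Base excision repair to 30 tested genes that were not members. Of those 30, 19 were called higher and 3 lower.

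By step of the pathway, called rises among these genes outside the members were found at every stage after the glycosylase. Over all tested genes 27.8% were called higher and 27.0% lower. The glycosylase step holds only NEIL1, NEIL2 and MPG here, because the member glycosylases are left out. Of those, UNG, SMUG1, MBD4, NEIL3, OGG1 and NTHL1 were called higher in the main fit, TDG lower and MUTYH neither. Both ligases rose, as did all 7 genes of the clamp, its loader and the flap endonuclease. Of these 7, the loader subunit RFC1 (0.094, edgeR adjusted p = 0.0461, 0.0315 to 0.147 over 15 other analyses) lost its call in 9 of the 15, among them the fits that left out si-NC replicate 1 or 3 or si-STRIP2 replicate 2 or 3. RFC4 (0.13, edgeR adjusted p = 0.0104, 0.00576 to 0.0762) lost it in 3, among them those that left out si-NC replicate 3 or si-STRIP2 replicate 3. Of 5 end-processing genes 4 rose, of 5 genes of break sensing and scaffold 4 rose, and of 10 polymerase subunits 6 rose. Among the end-processing genes, APTX (0.15, edgeR adjusted p = 0.021, 0.0106 to 0.123 over 15 other analyses) lost its call in 6 of the 15. These included the fits that left out si-NC replicate 1 or 3 or si-STRIP2 replicate 1. POLD4, a small subunit of DNA polymerase delta, was the 1 listed gene that fell. Its log2 fold change was -0.30 (SE 0.13, edgeR adjusted p = 0.0487). The call of POLD4 was lost in 9 of 15 other analyses (adjusted p 0.0276 to 0.177 over all 15), including each fit that left out one of si-NC replicates 1, 2 and 3 or of si-STRIP2 replicates 1 and 3.

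Of the 3 glycosylases that were not members, 1 passed the threshold. NEIL1, which removes oxidised bases, had 1.30, 1.16 and 1.87 FPKM in si-NC and 2.00, 1.83 and 1.54 FPKM in si-STRIP2, and these groups overlapped. Its log2 fold change was 0.32 (SE 0.12, edgeR adjusted p = 0.0295), and the call was lost in 8 of 15 other analyses (adjusted p 0.000231 to 0.203 over all 15). Among those were the ones that left out si-NC replicate 1 or 2, or si-STRIP2 replicate 1 or 2. MPG, the glycosylase for alkylated bases, differed by 0.080 in log2 units (SE 0.16, edgeR adjusted p = 0.704), with values from -0.11 to 0.21 over 15 other analyses, 2 of them below 0. NEIL2 differed by -0.098 (SE 0.056, edgeR adjusted p = 0.140).

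**Figure D5:**
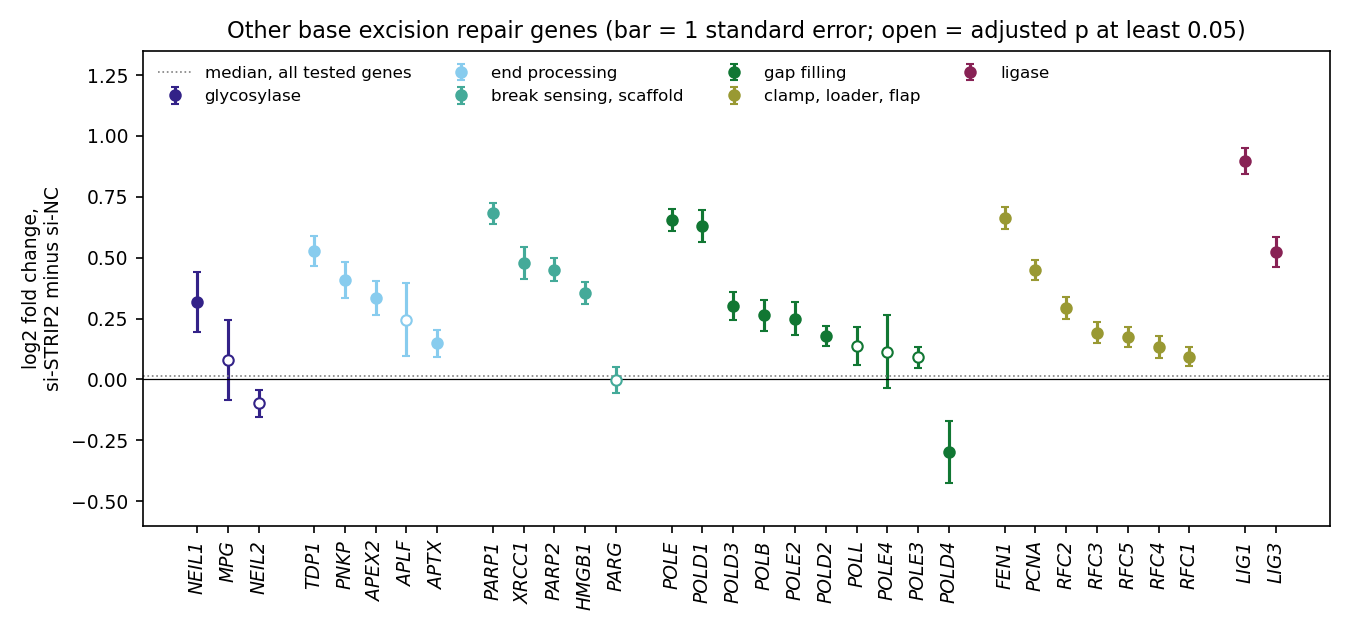
Log2 fold change, si-STRIP2 minus si-NC (vertical axis), of 32 base excision genes that are not members, grouped by step, with 1 standard error. Filled points passed an edgeR adjusted p of 0.05, and open points did not. Both ligases and all clamp, loader and flap genes lie above 0, and POLD4 is the one filled point below it.

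Genes next to these enzymes were counted in the same way. Of 10 enzymes of the dUMP and dTTP pools around DUT, 5 rose and 2 fell, with a median log2 fold change of 0.062. Over 15 other analyses 3 to 5 were called higher and 2 lower. In the main one, 27.8% of all tested genes were called higher and 27.0% lower. TK1 (0.72), RRM1 (0.64) and TYMS (0.44) rose, with edgeR adjusted p-values of 3.93e-15, 5.49e-14 and 1.86e-10. They encode thymidine kinase, the large subunit of ribonucleotide reductase and thymidylate synthase. The 2 that fell were the small subunits of ribonucleotide reductase, RRM2 by 0.18 and RRM2B by 0.31 on the log2 scale (edgeR adjusted p = 0.000595 and 5.78e-08). Among enzymes that clear damaged nucleotides, NUDT1 and ITPA rose (0.58 and 0.23, edgeR adjusted p = 9.70e-06 and 0.00179). NUDT1 hydrolyses the oxidised nucleotide whose incorporation OGG1 and MUTYH deal with.

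Of 9 cytidine deaminases that can place uracil in DNA, 5 were expressed enough to be tested, with log2 fold changes from -0.14 to 0.24. APOBEC3C was the 1 called, with a rise of 0.18 (SE 0.046, edgeR adjusted p = 0.00122). Of 8 genes listed around nuclear UNG, 3 were called higher and 5 were not called. RPA1 (0.63), PCNA (0.45) and RPA2 (0.33) rose, with edgeR adjusted p-values of 2.98e-15, 4.14e-11 and 9.17e-07. The 4 near-identical FAM72 genes, the first of which encodes an antagonist of nuclear UNG, were not called, and reads may be split between them. Of 8 genes of DNA methylation and its removal, 2 rose and 2 fell. This is near the shares of all tested genes, 27.8% called higher and 27.0% lower, so nothing is read from it. The same shares stand beside the other counts of this paragraph. DNMT1 and UHRF1, of maintenance methylation, rose by 0.57 each (edgeR adjusted p = 4.90e-14 and 1.59e-12). GADD45A fell by 1.13 on the log2 scale (edgeR adjusted p = 1.24e-21), and TET2, which oxidises methylcytosine to forms that TDG removes, fell by 0.36 (edgeR adjusted p = 1.70e-05). Of 3 genes of direct reversal of alkylation, ALKBH3 fell by 0.38 (edgeR adjusted p = 3.83e-05).

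Most of the listed cell cycle genes were higher in si-STRIP2 cells, where 27.8% of all tested genes were called higher and 27.0% lower. Of 17 genes of G1/S and S phase, 15 rose, CDC6 fell by 0.17 on the log2 scale and E2F2 was not called (-0.012), with a median log2 fold change of 0.60. Their summed level was 380 to 394 FPKM in si-NC and 567 to 582 FPKM in si-STRIP2. All 14 genes of G2/M rose, 13 to 14 over 15 other analyses, with a median of 0.36 and a summed level of 565 to 604 FPKM in si-NC and 717 to 722 FPKM in si-STRIP2. The call of CDK1 (0.093, edgeR adjusted p = 0.0457, 0.0279 to 0.163 over the 15) was lost in 9 of them, among these the fits that left out si-NC replicate 1 or 3 or si-STRIP2 replicate 2 or 3. The part of the cell cycle genes in the values of UNG, NEIL3 and the repair genes was not tested. In the deposited annotation all 10 members carry a nuclear location, and UNG, DUT, APEX1, OGG1, MUTYH and NTHL1, 6 of the 10, also a mitochondrial one. Of these 6 the log2 fold change ranged from 0.068 for MUTYH to 1.48 for UNG, and the 4 without it, SMUG1, TDG, MBD4 and NEIL3, from -0.29 to 0.50.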

How the data were processed

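RNA-seq of 6 HCT116 libraries was used as a deposited table with raw counts and FPKM per gene. Per the submitters' processing notes, reads were trimmed with cutadapt 1.9.1, aligned with HISAT2 2.2.1 to GRCh38.p13 and counted with HTSeq 0.6.1. The annotation release and the strand setting are not given in the sources used here. The deposited FPKM values were recomputed from the counts, the exonic size and the column total and differed by at most 0.005, their rounding. Libraries came from poly(A) RNA with a directional kit, per the labels' protocols.

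Genes were filtered with filterByExpr (minimum count 10), which left 15687 genes with 99.8% of counts, including all 10 members. edgeR 4.0.16 (R 4.3.3) fitted TMM-scaled counts by its quasi-likelihood method with group as the one term, and p-values were adjusted by Benjamini-Hochberg over all genes tested. A gene was called at an adjusted p under 0.05. Each SE was taken as the size of the log2 fold change over the root of its F statistic. The biological coefficient of variation was 0.0388.

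Alternatives used DESeq2 1.42.0, limma 3.58.1 on log2(FPKM + 1) and log2(FPKM + 0.1), other scalings and filters, a block by replicate number, and each library left out. Scripts were tested on simulated data. The members and lists were chosen with earlier results of these data known. Named were all members, the other glycosylases, up to 3 called genes with the smallest adjusted p per list, genes overlapping a member, the 5 nearest to UNG and to DUT, and STRIP2. POLD4, RFC1, RFC4, APTX, TET2, RRM2, RRM2B, CDK1, CDC6, E2F2, the FAM72 genes, and the cell type markers were named after their values were seen. The result for 1 gene of these lists is not reported here.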

Additional observations from a re-analysis of the deposited data

How the results depend on the processing

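Over 15 other fits, called genes numbered 6717 to 8604, against 8599, and members called higher 6 to 8, against 8, with 1 called lower in each. The members' log2 fold changes kept their sign in each fit, and UNG, NTHL1, APEX1, NEIL3, SMUG1, MBD4 and TDG stayed past the threshold, while DUT and OGG1 missed it in 6 fits each and MUTYH in all 15. Listed base excision genes outside the members called higher numbered 20 to 24, against 24. Those called lower, 1 in the main analysis (POLD4), were 0 under DESeq2, 0 with total counts only, 0 with no filter on low counts and 0 with the replicate block, and 0 to 1 when a library was left out. The cause was not tested. Leaving out each library gave 7690 to 8494 called genes, 6 to 8 members higher, and 21 to 23 base excision genes higher. The libraries share only replicate numbers: same-numbered libraries correlated at -0.0858, -0.0133 and -0.0718 in their deviations from the group means. With the replicate block, 8293 genes were called, 8 members higher and 1 lower, and the log2 fold change of UNG was 1.48. By the length of the coding transcript, an added alternative, 5 places in the order of levels changed, and with TPM 0 did. On 150 of the 300 bases of each window, the CHR word was found in 1 window in place of 4. CCAAT was found in 6 in place of 9, GGGCGG in 8 in place of 11, and an E2F-type word in 2 as before. Over all RefSeq windows the share with the CHR word was 15.2% on 300 bases and 6.84% on 150. NTHL1, OGG1 and MUTYH rest on the lowest counts of the members, 81 to 203 per library.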
